A study of Homo sapiens with 11 samples.

Results

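The genes described here are the 10 core genes of the death receptor and TRAIL pathway, namely TNFSF10, TNFRSF10A, TNFRSF10B, TNFRSF10D, FAS, TNFRSF1A, FADD, CASP8, CFLAR and XIAP. They were chosen by name, with earlier results of these data known, and all 10 were present among the 28395 genes counted in each table. RNA sequencing was carried out on PC3 and DU145, established human prostate cancer cell lines grown from metastases. Each line had been stably transduced either with control lentiviral particles or with a lentivirus carrying the ST6GAL1 open reading frame (overexpression, OE), at the same multiplicity of infection, so the control cells carried a lentivirus too. ST6GAL1 is the sialyltransferase that adds α2-6 linked sialic acid to N-glycans. The comparison asks how ST6GAL1 overexpression changes the RNA of the cells. There were 3 PC3 control, 3 PC3 OE, 3 DU145 control and 2 DU145 OE libraries (replicates 2 and 3), labelled as biological repeats. The sources used here do not say whether the repeats came from separate transductions, so p-values measure the spread between these samples.

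TRAIL, encoded by TNFSF10, is a ligand of the TNF family that is made by immune cells and by many epithelial cells, and interferons are known to induce it. It binds the death receptors DR4 (TNFRSF10A) and DR5 (TNFRSF10B), while DcR2 (TNFRSF10D) is a decoy with an incomplete death domain. Active receptors recruit the adaptor FADD and caspase-8, which can be held back by the caspase-8-like regulator c-FLIP (CFLAR), and XIAP blocks caspases further down. FAS is the receptor of FAS ligand and TNFRSF1A is the main receptor of TNF. Both proteins are described as substrates of ST6GAL1, and sialylation of a receptor protein cannot be seen in RNA counts.

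TNFSF10 lies on chromosome 3 (chr3:172505508-172523430, GRCh38.p14, minus strand). It had the largest change of the 10 genes in DU145, so the 250 bases before its annotated start (chr3:172523431-172523680, RefSeq, GRCh38.p14) are shown in the direction of the gene. Capitals mark matches to the core letters of an interferon-stimulated response element (GAAANNGAA, either strand) and to a TATA box (TATAAA).

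TNFSF10 promoter: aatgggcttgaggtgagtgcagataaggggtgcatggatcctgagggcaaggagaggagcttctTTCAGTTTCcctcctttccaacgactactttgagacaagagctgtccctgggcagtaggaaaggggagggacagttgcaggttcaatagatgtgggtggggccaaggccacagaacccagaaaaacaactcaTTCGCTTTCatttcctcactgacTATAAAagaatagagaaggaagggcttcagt

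The element's letters occurred at 186 and 54 bases upstream of the start, both times on the opposite strand, and TATAAA began 31 bases upstream. In windows of this length, 7.06% of 27305 RefSeq promoters held at least 1 such match and 0.593% held 2 or more. TATAAA was found in 11.1%. Promoter windows were found for 7 of the 10 genes. GAAANNGAA was not matched in the windows of FAS, TNFRSF1A, FADD, CASP8, CFLAR or XIAP. The letters GGGNNTTCC, an NF-kB-like match present in 5.81% of promoters, occurred once each in FAS, CASP8 and CFLAR, and GGGCGG, an SP1-like match present in 42.3%, in FAS, FADD, CASP8, CFLAR and XIAP. TTCNNNGAA (6.78% of promoters) was matched in CASP8 alone and GTAAACA (2.98%) in none of the 7. These matches are descriptions of the letters and do not show binding.

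Library totals were 13194485 to 18201359 counts, so that 3 counts, the upper limit that a count of 0 allows, corresponded to 0.165 to 0.227 CPM (counts scaled to the size of the library). These limits cover counting error only. ST6GAL1 itself was read 33 to 53 times in the PC3 control and 490 to 575 times in the PC3 OE libraries. In DU145, it was read 152 to 216 times in control and 5376 and 5350 times in OE. The epithelial markers KRT8, KRT18 and EPCAM were read in all 11 libraries. CTNNA1, known to be lost in PC3, had 16 to 25 counts there, against 7509 to 9886 in DU145. Among 9 markers of other cell types, the summed leukocyte markers were at 20.1 to 22.3 CPM in PC3 and 51.7 to 59.7 CPM in DU145, nearly all of it CD68, while CD3E was at 0 throughout and PTPRC had at most 13 counts. The summed fibroblast markers were at 24.6 to 26.9 CPM in PC3 control and 18.2 to 18.7 CPM in PC3 OE, nearly all of it COL1A1, with COL1A2 and DCN at 2 counts or fewer. The summed endothelial markers were at 6.45 to 7.44 CPM in PC3 control, 5.68 to 6.18 in PC3 OE, 0.396 to 0.598 in DU145 control and 0.838 to 1.84 in DU145 OE. The summed epithelial markers were 949 to 989 CPM in DU145 control and 758 to 838 CPM in DU145 OE. The part of these marker shifts in the results was not tested.

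In control cells, both lines contained the RNA of the receptor, adaptor and caspase steps, but differed most in the decoy receptor TNFRSF10D, in FAS, in TNFSF10 and in CFLAR. Per kilobase of 1 reference transcript per gene, TNFRSF1A had the highest level in both lines, with 47.2 CPM per kb in PC3 and 85.3 in DU145. In PC3, it was followed by FADD (44.9 CPM per kb), TNFRSF10B (34.1), CASP8 (10.5), TNFRSF10A (8.72), XIAP (4.52), CFLAR (1.71), FAS (0.366) and TNFSF10 (0.152). TNFRSF10D came last at 0.0290. The ranges of TNFRSF1A and FADD overlapped between the PC3 control libraries, and those of the other neighbours in this order did not. In DU145, TNFRSF10B (39.95 CPM per kb), FADD (31.5), TNFRSF10D (24.5), CASP8 (12.8), TNFRSF10A (9.51), CFLAR (8.19), XIAP (6.81), FAS (3.01) and TNFSF10 (0.792) followed in this order, and no neighbours in the order overlapped. The order depends on the reference transcript, 14.6 kb for CFLAR and 2.66 kb for CASP8. Which transcripts the cells used was not measured. Before this division, CFLAR had 119.6 CPM and CASP8 34.0 CPM in DU145 control, and 25.0 and 27.8 CPM in PC3 control. With OE, TNFSF10 reached 5.86 CPM per kb in DU145, above FAS (3.87) and overlapping TNFRSF10A (6.87), and 0.474 in PC3, overlapping FAS (0.432).

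**Figure D1:**
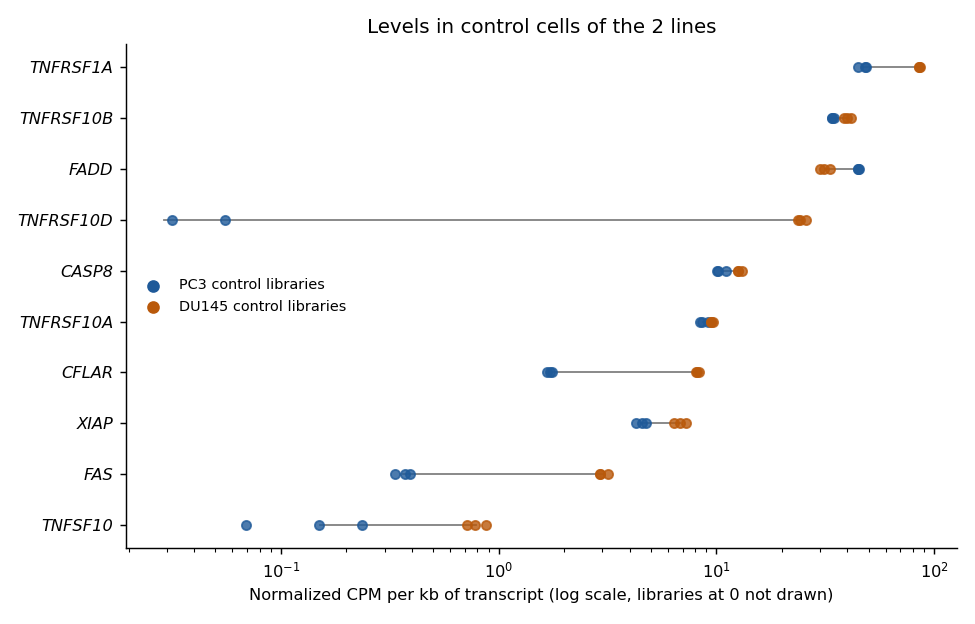
Levels of the 10 genes in the control libraries, as normalized CPM per kb of transcript on a log axis, ordered by the DU145 mean. Each point is 1 library and the grey line joins the means of the lines. TNFRSF10D shows the widest gap, from 0.0290 in PC3 to 24.5 in DU145, and FADD is the only gene of the 10 that is higher in PC3.

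TNFRSF10D was almost unread in PC3, with 2, 0 and 3 counts in control and 1, 2 and 0 in OE. DU145 had 1269, 1438 and 1141 counts in control and 1088 and 1148 in OE. The ratio of summed counts, scaled for depth, was 852 in control cells (95% counting interval 365 to 2625), and no DU145 library overlapped a PC3 library. FAS was also far lower in PC3, with 22, 23 and 21 counts in control against 163, 186 and 144 in DU145 control, a difference of -3.04 on the log2 scale (PC3 minus DU145, SE 0.154, adjusted p = 1.3e-16, edgeR). CFLAR differed by -2.26 (SE 0.0567, adjusted p = 1.1e-23), TNFRSF1A by -0.86 (SE 0.0476) and XIAP by -0.59 (SE 0.0629). TNFSF10 differed by -2.36 (SE 0.374, adjusted p = 1.7e-06). With 5, 7 and 2 counts in PC3 control, it passed the low-count filter through the DU145 libraries alone, so its test is no independent support. The depth-scaled ratio of its summed counts, DU145 control to PC3 control, was 5.22 (95% counting interval 2.90 to 10.06). FADD was 0.50 higher in PC3 (SE 0.0554, adjusted p = 2.5e-09). Smaller differences were found for CASP8 (-0.30, SE 0.0678) and TNFRSF10B (-0.23, SE 0.0461), and TNFRSF10A did not pass the test (-0.13, 95% interval -0.27 to 0.01, adjusted p = 0.0931).

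In all, 9 of the 10 genes had an adjusted p under 0.05 between the control lines, 8 lower and 1 higher in PC3, where 88.2% of 14246 genes tested did so (44.1% higher and 44.1% lower in PC3). With an absolute log2 fold change over 0.58 as well, 6 of 10 passed, against 64.6% of all genes. The share of the 10 genes is therefore close to the background. TNFSF10 and TNFRSF10D entered this comparison through the DU145 libraries alone, so their calls are no independent support. With at least 10 counts required in every library, 7 members and 10395 of all genes passed by adjusted p. By both rules, 4 members and 7006 genes passed under that filter. Line, table and date of submission cannot be told apart in this comparison.

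**Figure D2:**
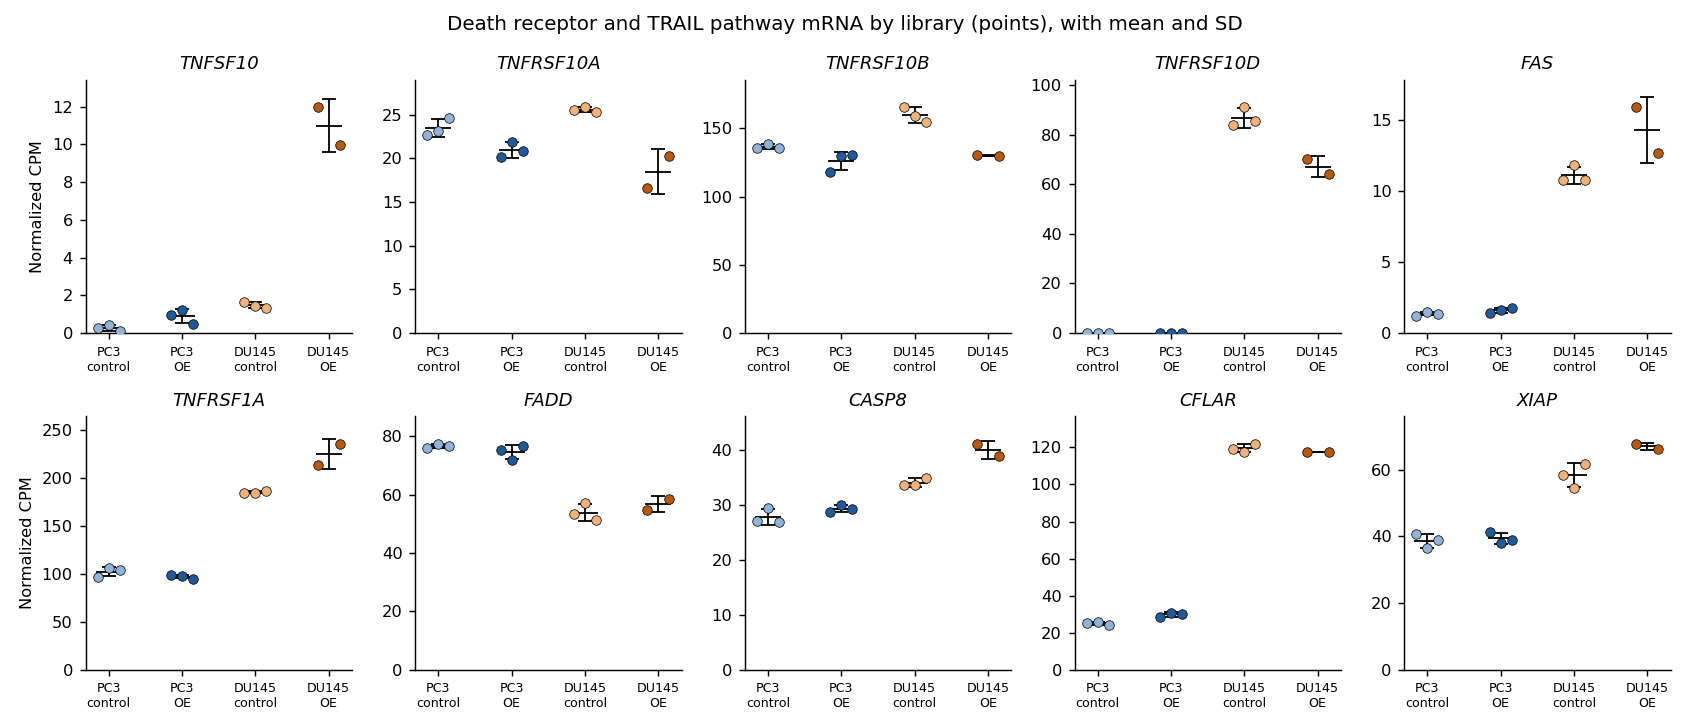
Normalized CPM of each of the 10 genes in every library (points), by line and condition, with the mean (dash) and SD (bars) of 2 to 3 libraries. The y axes start at 0 and differ between genes. TNFSF10 stands at 9.99 and 12.0 CPM in the DU145 OE libraries and at or below 1.65 CPM in all others.

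TNFSF10, the TRAIL ligand, rose with ST6GAL1 overexpression in DU145. It was read 25, 23 and 18 times in the control libraries and 186 and 179 times in the OE libraries. This corresponded to 1.49 ± 0.154 CPM (SD, n = 3) in control and 10.99 ± 1.41 CPM (SD, n = 2) in OE. Both OE libraries lay far above every control library, and the fold change was 7.36 (log2 2.88, SE 0.188, adjusted p = 2.1e-07, edgeR). It kept the same direction and call in all 11 alternatives, with log2 fold changes of 2.73 to 3.01. Of the 4 other tested genes within 1 Mb, 3 had positive values, and 2 rose and none fell by adjusted p. Among all genes tested, 10.7% rose. The neighbours had a median log2 fold change of 0.31 and a range of -0.12 to 0.93. In PC3, the median of 5 tested neighbours was 0.01. The part of the neighbourhood in the rise of TNFSF10 was not tested. In bulk RNA, a change in the number of cells that express a gene and in the RNA per cell cannot be told apart.

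In PC3, TNFSF10 was read 5, 7 and 2 times in control and 14, 22 and 8 times in OE, which is 0.284 ± 0.156 against 0.890 ± 0.358 CPM (SD, n = 3 each). All OE libraries lay above all control libraries, but the counts were few and the gene did not reach the low-count filter, so no fitted value is given for PC3. The ratio of summed counts was 3.16 (95% counting interval 1.70 to 6.25). An exact two-sided permutation test gave p = 0.1, which is the smallest p that 3 against 3 libraries allow. Where a filter setting or the removal of 1 library let the gene into the fit (no filter, or without PC3 control replicate 1, 2 or 3 or OE replicate 3), the log2 fold change was 1.32 to 2.06, with adjusted p from 0.00135 to 0.0252 (edgeR). Without a library, the gene entered the fit through its higher OE counts, so these values are given as a description. The change was 1.24 log2 units larger in DU145 than in PC3 (SE 0.556, 95% interval 0.15 to 2.33), which did not pass the correction (adjusted p = 0.128). TNFSF10 in PC3 OE cells thus stayed below its level in DU145 control cells.

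The other ligands of death receptors were hardly read. TNF and LTA were at 0 in all 11 libraries, and FASLG, the ligand of FAS, had at most 4 counts.

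The TRAIL receptors TNFRSF10A, TNFRSF10B and TNFRSF10D fell in DU145. TNFRSF10A (DR4) stood at 25.5, 25.9 and 25.3 CPM in the control libraries and at 16.6 and 20.3 CPM in OE, a fold change of 1.38 downwards (log2 -0.46, SE 0.115, adjusted p = 0.0118, edgeR). TNFRSF10B (DR5) stood at 166, 159 and 154 CPM in control and at 130 CPM in both OE libraries (log2 -0.29, SE 0.0731, adjusted p = 0.0120). For the decoy TNFRSF10D, 83.8, 91.2 and 85.3 CPM in control compared with 70.1 and 64.1 in OE (log2 -0.37, SE 0.0829, adjusted p = 0.00638). For each of these genes, both OE libraries lay below all 3 control libraries. With 3 against 2 libraries there are only 10 arrangements, so an exact two-sided permutation test allows no p below 0.2. Separation of the DU145 groups, here and for other genes, is therefore a description. The share of all genes that separate is not given here. The call of TNFRSF10A was lost without control replicate 1 or 2 and that of TNFRSF10B without control replicate 1, and that of TNFRSF10D was kept in all 11 alternatives. TNFRSF10C (DcR1), a TRAIL decoy receptor of the same cluster that is not among the members, did not pass. It was read 13, 12 and 13 times in DU145 control and 13 and 20 times in OE (log2 0.20, 95% interval -0.50 to 0.90, adjusted p = 0.740).

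In PC3, TNFRSF10B fell slightly, from 135, 138 and 136 CPM in control to 118, 130 and 130 CPM in OE (log2 -0.11, SE 0.0354, adjusted p = 0.0120). The call was lost in DESeq2 and without OE replicate 1, where the log2 fold change was -0.07. TNFRSF10A had 22.6, 23.1 and 24.6 CPM in control and 20.1, 21.9 and 20.8 in OE. These groups did not overlap, but the difference did not pass the correction (log2 -0.16, 95% interval -0.29 to -0.02, adjusted p = 0.0653). The effects on TNFRSF10A and TNFRSF10B were not shown to differ between the lines (differences of -0.30 and -0.18, adjusted p = 0.0842 and 0.0850). They passed without DU145 OE replicate 3, and that of TNFRSF10B also without PC3 OE replicate 1.

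These receptor genes lie together on chromosome 8 (TNFRSF10B at chr8:23020133-23069031, TNFRSF10D at chr8:23135588-23164027 and TNFRSF10A at chr8:23190452-23225102, GRCh38.p14), and in DU145 the genes around them moved the same way. Of 29 other tested genes within 1 Mb, 24 had a negative log2 fold change, 17 fell and none rose by adjusted p, where 9.42% of all genes tested fell. Their median log2 fold change was -0.45, against -0.00161 for all genes tested, and the values of the 3 receptors ranged from -0.46 to -0.29. In wider windows chosen after these values were seen, 9 of 9 tested genes at 1 to 3 Mb, 21 of 22 at 3 to 5 Mb, 31 of 33 at 5 to 10 Mb and 62 of 73 at 10 to 20 Mb had negative values. The medians of these windows were -0.46, -0.25, -0.38 and -0.29. Farther away, at 20 to 50 Mb, 29 of 62 were negative, with a median of 0.01, and beyond 50 Mb the median was 0.09.

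No such downward shift was present in PC3, where 16 of 26 tested neighbours within 1 Mb were negative and the median was -0.03. In the wider windows, 3 of 7 tested genes at 1 to 3 Mb, 8 of 22 at 3 to 5 Mb, 6 of 27 at 5 to 10 Mb and 40 of 69 at 10 to 20 Mb were negative in PC3. The medians of these PC3 windows were 0.02, 0.12, 0.05 and -0.06. Across the alternatives, the DU145 median within 1 Mb lay between -0.48 and -0.34, the latter without OE replicate 2, and 12 to 20 of the neighbours fell. TNFRSF10A (-0.46) lay at the median of its neighbours and TNFRSF10D (-0.37) and TNFRSF10B (-0.29) above it. The part of the regional shift in the fall of the receptors was not tested.

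**Figure D3:**
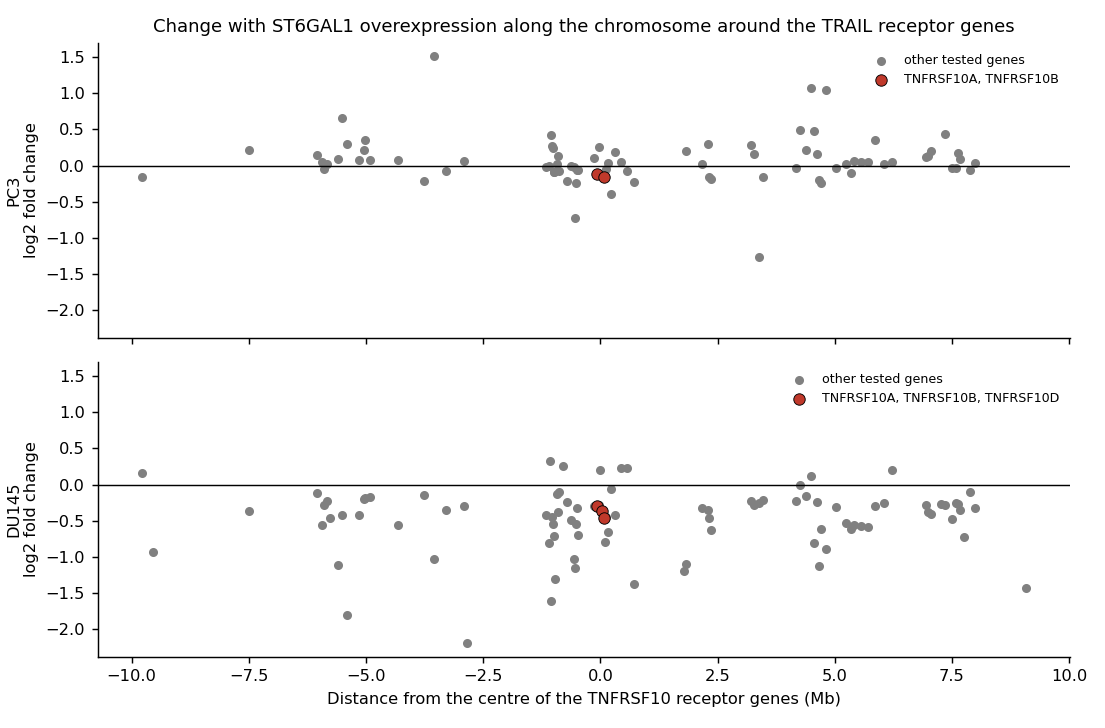
Log2 fold change with ST6GAL1 overexpression of the tested genes within 10 Mb of the centre of the TNFRSF10 receptor genes, in PC3 (top) and DU145 (bottom), with the receptors in red. In DU145, most genes on both sides lie below 0 together with the receptors, with a median of -0.45 within 1 Mb. In PC3 the median within 1 Mb is -0.03, and at 3 to 5 Mb and 5 to 10 Mb most tested genes lie above 0.

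FAS did not pass the test in either line. In DU145, 10.8, 11.8 and 10.8 CPM in control compared with 15.9 and 12.7 in OE, and both OE libraries lay above the controls (log2 0.36, 95% interval 0.09 to 0.64, adjusted p = 0.0802). It passed without OE replicate 3, which was the lower of the OE libraries, with a log2 fold change of 0.53. In PC3, where FAS was read 21 to 29 times per library, the groups overlapped (log2 0.25, 95% interval -0.24 to 0.73, adjusted p = 0.463). ACTA2, which overlaps FAS in the annotation, had at most 41 counts in any library.

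TNFRSF1A, the TNF receptor, rose in DU145 from 185, 184 and 186 CPM in control to 214 and 236 in OE. The OE libraries did not overlap the controls (log2 0.29, SE 0.0730, adjusted p = 0.0128). The direction held in all alternatives, but the call was lost whenever 1 of the 3 control libraries was left out. In PC3 it had 97.3, 106 and 104 CPM in control and 98.7, 98.1 and 95.04 in OE (log2 -0.07, adjusted p = 0.126), and this passed without control replicate 1 (log2 -0.11). The effects of the lines differed by 0.36 (DU145 minus PC3, SE 0.0745, adjusted p = 0.00185), and this difference was kept in all 17 alternatives.

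Of the intracellular members, CFLAR (c-FLIP) was the one that rose in PC3. It had 25.1, 25.7 and 24.3 CPM in control and 28.6, 30.9 and 30.2 in OE, with no overlap, a fold change of 1.20 (log2 0.26, SE 0.0611, adjusted p = 7.6e-04). All 12 alternatives kept this call. In DU145, where CFLAR started 4.79-fold higher, 119, 118 and 122 CPM in control compared with 118 and 118 in OE (log2 -0.02, 95% interval -0.16 to 0.12, adjusted p = 0.890). The effect was 0.28 smaller in DU145 (SE 0.0809, adjusted p = 0.0190). The call of this difference was lost without PC3 control replicate 3, PC3 OE replicate 2 or PC3 OE replicate 3.

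FADD, the adaptor, ranged from 72.0 to 77.5 CPM in all 6 PC3 libraries and from 51.1 to 58.6 in all 5 DU145 libraries. OE and control overlapped in both lines, with log2 fold changes of -0.04 (95% interval -0.12 to 0.04) in PC3 and 0.08 (-0.09 to 0.25) in DU145. CASP8 stood at 27.03, 29.5 and 26.9 CPM in PC3 control and at 28.7, 30.0 and 29.2 in OE (log2 0.08, adjusted p = 0.326). In DU145 it stood at 33.6, 33.5 and 35.0 CPM in control and 41.2 and 38.9 in OE. These DU145 groups did not overlap, but the adjusted p was 0.0825 (log2 0.24, 95% interval 0.06 to 0.42), and CASP8 passed without OE replicate 3. CASP8 and CFLAR are neighbours on chromosome 2, where the other 20 tested genes within 1 Mb had median log2 fold changes of -0.02 in PC3 and 0.05 in DU145.

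XIAP did not pass in PC3, with 40.6, 36.5 and 39.0 CPM in control and 41.2, 38.0 and 38.9 in OE (log2 0.02, 95% interval -0.09 to 0.13, adjusted p = 0.809). In DU145, 58.4, 54.7 and 61.8 CPM in control compared with 67.9 and 66.3 in OE. The OE libraries lay above the controls, but the difference did not pass (log2 0.21, 95% interval 0.04 to 0.38, adjusted p = 0.102).

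**Figure D4:**
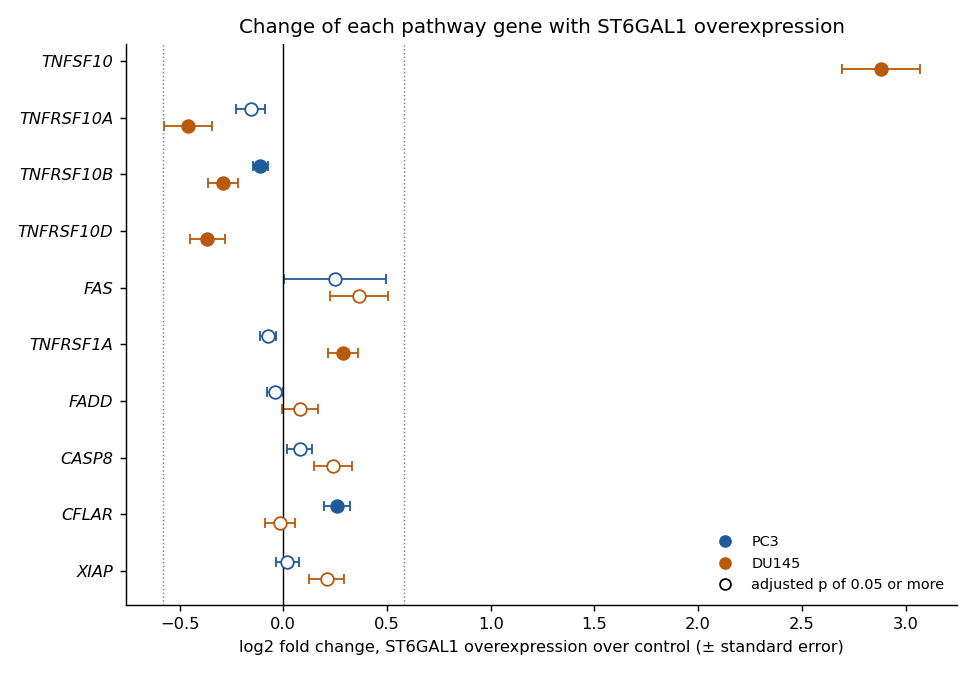
Log2 fold change of each of the 10 genes with ST6GAL1 overexpression (x axis, bars are standard errors) in PC3 (blue) and DU145 (orange), filled where the adjusted p was under 0.05. Dotted lines mark an absolute value of 0.58. TNFSF10 in DU145, at 2.88, is the only point past them, and TNFSF10 and TNFRSF10D were not tested in PC3.

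By adjusted p, 2 of the 8 genes tested in PC3 passed, CFLAR higher and TNFRSF10B lower. The background was 37.3% of 13544 genes (18.8% higher and 18.5% lower), so that the share of the members, 25%, was not above it. None of the 8 also had an absolute log2 fold change over 0.58, as 5.38% of all genes did (3.61% higher and 1.76% lower). The count by adjusted p was 4 without PC3 control replicate 1 and 1 without PC3 OE replicate 1 or in DESeq2. In DU145, 5 of 10 passed, TNFSF10 and TNFRSF1A higher and TNFRSF10A, TNFRSF10B and TNFRSF10D lower, where 20.1% of 13676 genes did (10.7% higher and 9.42% lower). This count was 2 without DU145 control replicate 1 and 3 without control replicate 2. The 3 receptors that were lower are neighbours on chromosome 8. There, 17 of 29 other tested genes within 1 Mb fell too, so these calls are not separate from each other. TNFSF10 alone also passed the fold threshold, against 8.94% of all genes (4.33% higher and 4.61% lower).

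For the difference between the lines, 2 of 10 passed by adjusted p, TNFRSF1A and CFLAR, where 19.7% of 14952 genes did. None of the 10 also passed the fold threshold, against 8.72%. The median log2 fold change of the tested members was -0.01 in PC3 and 0.14 in DU145, and that of all genes tested was -0.00159 and -0.00161.

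The wider pathway was described by 6 lists, which hold the members too. Their counts stand beside the shares of all genes tested that rose or fell, 18.8% and 18.5% in PC3 and 10.7% and 9.42% in DU145, and beside median log2 fold changes of -0.00159 and -0.00161. In the list of 16 ligands and receptors, 2 of 7 tested genes rose and 1 fell in PC3, and 3 of 11 rose and 4 fell in DU145. Called genes were 42.9% and 63.6% of those tested, against 37.3% and 20.1% of all genes, and the medians were -0.07 and 0.07. Of the 7 DU145 calls, 5 were the members already described, 3 of them neighbours on chromosome 8, and 2 of 5 tested non-members passed. TNFRSF21 (DR6), a death receptor that does not bind TRAIL, rose in both lines, from 272 ± 21.8 to 404 ± 11.5 CPM in PC3 (log2 0.57, SE 0.0517, adjusted p = 1.9e-05) and from 63.4 ± 1.88 to 102 ± 4.13 CPM in DU145 (log2 0.69, SE 0.0771, adjusted p = 2.7e-05). NGFR, the low-affinity neurotrophin receptor, fell in DU145 from 21, 30 and 36 counts to 13 and 12 (log2 -1.38, SE 0.364, adjusted p = 0.0155), a call lost in DESeq2 and without control replicate 2 or 3. TNFRSF11B (osteoprotegerin), a secreted decoy for TRAIL and RANKL, was singled out after its values were seen. It was read 0, 1 and 1 times in DU145 control and 8 times in each OE library, a depth-scaled ratio of 10.6 (95% counting interval 2.49 to 94.98). An exact two-sided permutation test gave p = 0.2, the smallest it allows here. PC3 had 26, 10 and 21 counts in control and 13, 10 and 14 in OE.

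Among 16 adaptors, kinases and ubiquitin enzymes, 1 of 14 tested genes rose and 3 fell in PC3, and 1 of 15 rose and 1 fell in DU145. These were 28.6% and 13.3% of those tested, both below the 37.3% and 20.1% of all genes, with medians of -0.04 and -0.02. TNFAIP3 (A20), a ubiquitin-editing enzyme that limits NF-kB signalling and is itself an NF-kB target, went in opposite directions. It fell in PC3 from 13.7, 17.1 and 14.01 to 7.62, 8.66 and 9.02 CPM (log2 -0.81, SE 0.0985, adjusted p = 8.2e-09), and rose in DU145 from 6.27, 7.10 and 7.10 to 9.47 and 13.6 CPM (log2 0.77, SE 0.167, adjusted p = 0.00495). The DU145 call was lost without control replicate 1 or 2. The effects differed by 1.58 (SE 0.199, adjusted p = 1.2e-05).

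In the list of 9 caspases, CFLAR and APAF1, all of them tested, 3 rose and 1 fell in PC3 and 1 fell in DU145. The called shares of 44.4% and 11.1% compared with 37.3% and 20.1% of all genes, and the medians were 0.08 and -0.02. CASP2, an initiator caspase, rose in PC3 from 94.9 ± 5.99 to 111 ± 3.82 CPM (log2 0.23, SE 0.0398, adjusted p = 1.1e-05). CASP9, the initiator of the mitochondrial route, fell in DU145 from 29.9 ± 1.11 to 20.2 ± 0.610 CPM (log2 -0.56, SE 0.103, adjusted p = 0.00156). RIPK3, a kinase of necroptosis from the adaptor list, was at 0 in all libraries.

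Of 10 inhibitors of apoptosis and their antagonists, 2 of 8 tested rose and 3 fell in PC3, and 2 of 8 rose and 2 fell in DU145. With 62.5% and 50% called, against 37.3% and 20.1% of all genes, the medians were -0.03 and 0.14. BIRC3 (cIAP2), an NF-kB target, fell in PC3 from 26.4, 31.2 and 25.6 to 13.9, 13.4 and 14.3 CPM, a fold change of 2.00 downwards (log2 -0.996, SE 0.0773, adjusted p = 5.8e-14). In DU145 it was 23.2 ± 1.89 CPM in control and 24.6 ± 0.176 in OE (log2 0.09, adjusted p = 0.605). XAF1, an interferon-induced antagonist of XIAP, rose in PC3 from 1, 4 and 1 counts to 11, 18 and 16 (log2 2.84, SE 0.509, adjusted p = 1.8e-05), a depth-scaled ratio of 7.55 (95% counting interval 3.21 to 21.7). With 1 to 4 control counts, the gene passed the low-count filter through the OE libraries alone, so its test is no independent support. It was at 0 in all 5 DU145 libraries, so its effects in the lines cannot be compared. BIRC5 (survivin), which is linked to cell division, fell in both lines (log2 -0.28 in PC3 and -0.36 in DU145, adjusted p = 1.4e-10 and 0.00435).

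The BCL2 family list had 17 genes, of which 3 of 16 tested rose and 4 fell in PC3, and 3 of 15 rose and none fell in DU145. In DU145 the called share, 20%, was that of all genes (20.1%), and in PC3 it was 43.8% against 37.3%. The medians were -0.01 in PC3 and -0.17 in DU145, where most tested members of the list had negative values that did not pass. BMF, a BH3-only activator of cell death, rose from 8.46 ± 1.14 to 11.02 ± 0.816 CPM in PC3 (log2 0.39, SE 0.104, adjusted p = 0.00254) and from 16.6 ± 0.870 to 39.7 ± 4.76 CPM in DU145 (log2 1.27, SE 0.111, adjusted p = 3.0e-06). The other 2 that rose in DU145 were the BH3-only genes BCL2L11 (BIM, log2 0.46) and PMAIP1 (NOXA, log2 0.40), named after their values were seen. PMAIP1 fell in PC3 (log2 -0.30). BCL2A1, an anti-apoptotic NF-kB target, fell in PC3 from 7.61, 7.40 and 8.28 to 3.81, 3.25 and 3.72 CPM (log2 -1.11, SE 0.134, adjusted p = 7.0e-09).

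Of 10 transcription factors that are placed upstream of TNFSF10 or the death receptors in textbooks, 3 of 9 tested rose and 2 fell in PC3, and 3 of 9 rose and none fell in DU145. This was 55.6% and 33.3% of those tested, against 37.3% and 20.1% of all genes, with medians of 0.05 and 0.21. FOXO3, a forkhead factor, rose in DU145 from 26.9 ± 2.06 to 36.4 ± 0.229 CPM (log2 0.44, SE 0.100, adjusted p = 0.00662), a call lost without control replicate 1 or 2. FOXO1 (log2 0.47) and ATF4 (log2 0.22), named after their values were seen, were the other two that rose in DU145.

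**Figure D5:**
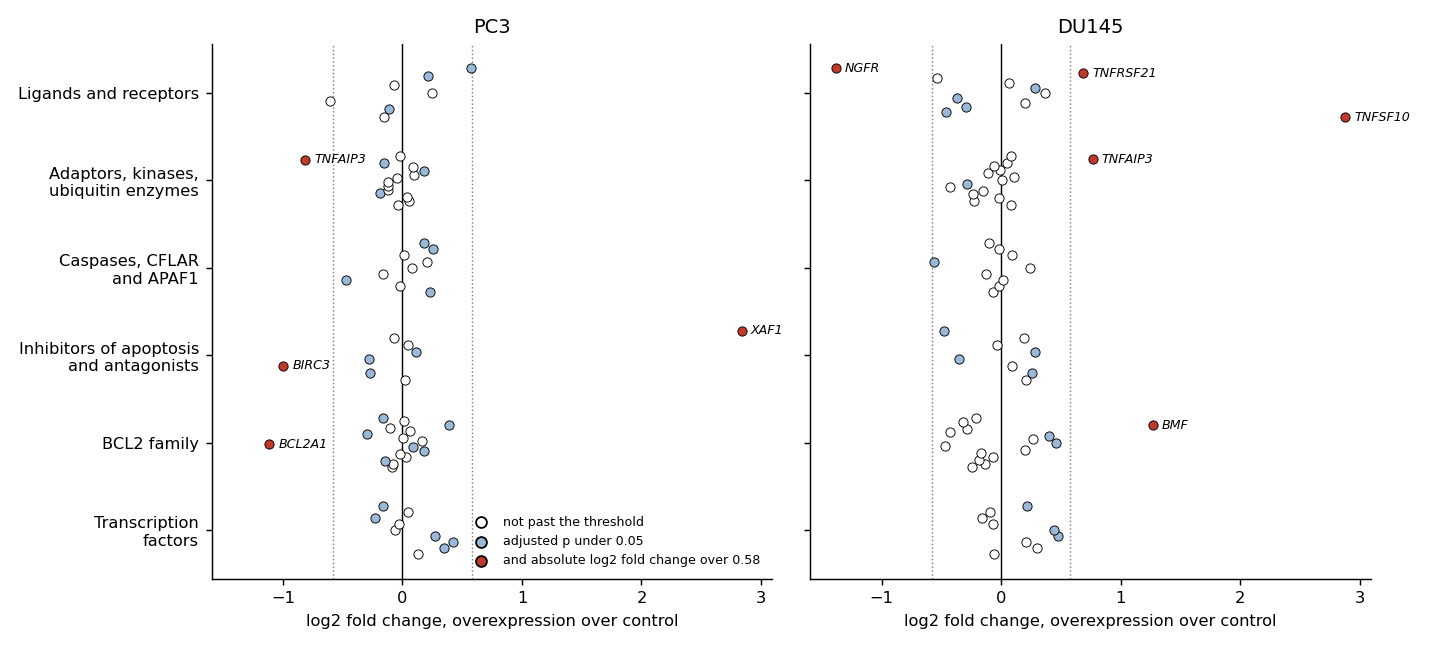
Log2 fold change with ST6GAL1 overexpression of each tested gene of the 6 pathway lists in PC3 (left) and DU145 (right). Points are white where the adjusted p was 0.05 or more, blue where it was under 0.05, and red and named where the absolute log2 fold change was also over 0.58. Most genes lie within the dotted lines at 0.58, with 4 named genes in PC3 and 5 in DU145.

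The genes whose pattern over the 4 groups was most like that of TNFSF10, by the root mean square difference of centred log2 group means among 11953 other genes with a mean of at least 5 CPM in some group, were AKR1C2 (0.279), RN7SL2 (0.316), MAP2 (0.327), PSMB3 (0.444) and AKR1B10 (0.444). AKR1C2 and AKR1B10 encode aldo-keto reductases, MAP2 a microtubule-associated protein and PSMB3 a proteasome subunit, while RN7SL2 is an RNA of the signal recognition particle. In DU145, AKR1C2 went from 0.833 to 5.35 CPM and MAP2 from 5.83 to 18.9 CPM between the group means. AKR1B10 went the other way in PC3, from 0.765 in control to 0.508 CPM in OE, where TNFSF10 was higher in OE. The measure is a description over 4 groups and 11 libraries. AKR1C2 and RN7SL2 have near-identical copies in the genome, and their counts are uncertain. PSMB3 stood at only 0.163 CPM in PC3 control and 6.25 CPM in DU145 OE. With the annotation and counting settings not given, its count is uncertain too, and the gene cannot be read as silent.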

How the data were processed

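TruSeq Stranded mRNA libraries were sequenced as single reads on an Illumina NextSeq. Working in Galaxy, the authors trimmed reads by Cutadapt after FastQC, used HISAT2 for alignment (build hg38) and featureCounts for read counts. The deposited values are raw counts per Entrez gene, 1 table per line. The annotation and the strand and multi-mapping settings are not given in the sources used here, so counts of overlapping genes (RHOBTB2 with TNFRSF10B, ACTA2 with FAS) and of similar genes such as TNFRSF10C and TNFRSF10D are uncertain.

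Of the 28395 identifiers, 97.7% matched a RefSeq symbol. Levels are CPM normalized by TMM over all 11 libraries, divided where stated by the length of the MANE Select transcript (GENCODE). Each comparison was tested with the quasi-likelihood test of edgeR 4.0.16 (R 4.3.3, TMM, filterByExpr, robust) over all genes, with Benjamini-Hochberg adjustment, a threshold of 0.05, and a second rule that adds an absolute log2 fold change over 0.58. The methods of the study name limma-voom, which was an alternative here (limma 3.58.1), as were DESeq2 1.42.0, other size factors and filters, a stricter fold, a replicate block and the removal of each library. Ratios of small counts have exact 95% intervals for counting error. The 95% intervals of log2 fold changes use a normal multiplier on a standard error derived from the F statistic. With few libraries they can be too narrow, and they are not adjusted for multiple testing. An interval without 0 is therefore not a call. The tests were checked on simulated counts with 200 genes changed by 1 log2 unit, of which 98% were recovered among 13555 genes for PC3 and 93.5% among 13619 for DU145. Among unchanged genes, 8 were called for PC3 and 6 for DU145. The simulation used a common spread for all genes and changed no weakly read genes. It therefore does not cover smaller changes, low counts or the larger spread between the DU145 OE libraries.

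The members and lists were chosen with earlier results of these data known. Genes outside the members were named where they passed both thresholds in a line, or otherwise had the smallest adjusted p of their list in that line. Replicates of a group differed by more than the sampling noise (chi-square per gene 1.39 to 5.46, and 13.3 between the DU145 OE libraries). Protein sequences were not analysed here, and some genes that the naming rule or the marker lists hold are not reported here.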

Additional observations from a re-analysis of the deposited data

Results flagged for a closer look

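The effect of ST6GAL1 overexpression differed between the lines, by the test of the difference itself (DU145 effect minus PC3 effect, edgeR, adjusted p under 0.05 over 14952 genes), for 9 of the named genes. Among the members these were TNFRSF1A (0.36) and CFLAR (-0.28). TNFRSF1A was 0.29 higher in DU145 and 0.07 lower in PC3, where it did not pass, and CFLAR rose by 0.26 in PC3 and differed by -0.02 in DU145. The targeted gene ST6GAL1 differed by 1.06, with a 25.0-fold rise in DU145 and a 12.0-fold rise in PC3. It reached 322 CPM in DU145 OE and 32.5 CPM in PC3 OE. Line and ST6GAL1 level therefore cannot be told apart in any of these differences. In the wider pathway, the difference was 1.58 for TNFAIP3, 1.08 for BIRC3, 0.87 for BMF, 0.50 for FOXO3, -0.30 for CASP2 and -0.77 for CASP9. All 9 values are log2 differences, and 19.7% of all genes tested passed this test. Genes outside the members were named by their tests in these same data, so the 9 cannot be compared with that share.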

How the results depend on the processing

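Over the 10 members, 461 of 488 member values under alternatives kept their direction and call, 11 passed newly, 11 lost the call and 5 reversed. Of the 11 that passed newly, 5 were TNFSF10 in PC3, which the main fit did not test, so they had no call to change. The reversed values were XIAP in PC3 (-0.018 without PC3 control replicate 2 and -0.012 without PC3 OE replicate 1, range without 1 library -0.018 to 0.058), and the differences between lines of TNFRSF10D (-0.42 and -0.22 without PC3 control or OE replicate 3, range to 1.06, where PC3 is near 0) and FAS (-0.072 without DU145 OE replicate 2, range to 0.26). BCL2A1, from the wider lists, reversed in the difference without DU145 OE replicate 3 (-0.086, range to 1.07). None of these had passed the test.

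In PC3, 2 members passed by adjusted p and 1 in DESeq2, with 1 to 4 when 1 library was left out. By both thresholds it was 0, with 1 (TNFSF10) without a filter and 0 to 1 when 1 library was left out. With 1 library left out, the member counts in DU145 ranged from 2 to 7 by adjusted p and from 1 to 2 by both. For the difference they ranged from 1 to 4 and stayed at 0. With 1 library left out, genes called in DU145 by adjusted p ranged from 1310 (without control replicate 2) to 4690 (without OE replicate 3) around 2747, and by both from 830 to 2072 around 1222. For the difference these ranges were 2287 to 5161 around 2949 and 1148 to 2270 around 1304, again highest without DU145 OE replicate 3. At an absolute log2 fold change over 1, 286 genes passed in PC3, 596 in DU145 and 659 for the difference. A group left with 1 library was assumed to vary like the others. The cause was not tested.

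With the replicate block, 5155 genes passed in PC3, 3669 in DU145 and 3551 for the difference, and the member counts did not change (2, 5 and 2). Same-numbered libraries deviated together with correlations of -0.007 to 0.045 in PC3 and 0.10 and 0.31 in DU145, and PC3 OE replicate 1 did not correlate best with its own number. With 2 OE libraries in DU145, their deviations mirror each other and say little about pairing. A pairing was not shown, and the libraries were treated as sharing only a number.

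The spread between libraries was larger in DU145 than in PC3 (common biological coefficient of variation 0.0817 against 0.0226), and DU145 had 2 OE libraries. Depth limits TNFSF10, TNFRSF10D and XAF1 in PC3 and TNFRSF11B in DU145, with counts in part at or under the limit of 3.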
